A study of Mus musculus with 32 samples.

Results

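The 10 genes described here are markers of the choroid plexus, the epithelium that floats in the brain ventricles: Ttr, Folr1, Aqp1, Kl, Clic6, Sostdc1, Enpp2, Otx2, Calml4 and Prlr. They are 10 of the 54146 genes in the deposited count table, and all 10 were matched by Ensembl identifier to the GENCODE mouse annotation. They were chosen by their measured levels: replicates 2 and 4 of 1 hippocampus group held far more of them than any other library. The levels in those 2 libraries, and the comparisons of their group with another, are therefore given as a description with no test. Both libraries do enter the spread of the tests on other hippocampus groups and between the regions, which take it from all groups.

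RNA was sequenced from hippocampus or striatum of male C57BL/6 mice aged 12 weeks, with 1 region of 1 mouse in each of 32 libraries. All groups had an intraperitoneal injection 1 hour before behaviour, and single hemispheres were dissected 1 hour after it. The HDACi groups received 30 mg/kg of CI-994, which blocks the class I enzymes that remove acetyl groups from histones (HDAC), and the Veh groups received its vehicle. The CFC groups then had contextual fear conditioning with 2 foot shocks of 0.2 mA, and the Context groups had the same chamber without shock. This gives Veh-Context, Veh-CFC, HDACi-Context and HDACi-CFC, with 4 mice each in each region. Mice of 1 cage went through 1 behaviour, so cage and behaviour cannot be told apart.

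The choroid plexus epithelium secretes cerebrospinal fluid and forms the barrier between blood and that fluid. It hangs as fronds in the lateral ventricles, beside the hippocampus and the striatum, and in the ventricles of the midline. Its cells are known for very high Ttr (transthyretin, the carrier of thyroxine and of the retinol-binding protein), and its identity depends on the homeodomain factor Otx2. Several of its markers are also made elsewhere: Enpp2 (autotaxin, which makes the signalling lipid lysophosphatidic acid) in oligodendrocytes, and Kl (Klotho, a co-receptor for Fgf23) in neurons.

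Promoter sequence is shown for genes that stand together in the libraries below and differ in their roles: a water channel, a transcription factor and a hormone receptor. Windows of the 250 bases before an annotated start were taken from RefSeq (GRCm38.p6), which gave 10 windows for 5 of the 10 genes (Kl, Aqp1, Calml4, Otx2 and Prlr). They were searched on both strands for TAATCC, a core of Otx2-type homeodomain sites, and for TGTTTAC, a core of forkhead sites such as that of Foxj1. The letters TAATCC occurred in 1 of the 10 windows, an Otx2 window that overlaps an exon and is not printed, and in 6.25% of all 32851 windows. The letters TGTTTAC occurred in 1 of the 10, a Prlr window, and in 3.17% of all windows. The sequences run 5′ to 3′ on the gene's strand, and capitals mark the TGTTTAC match. The Aqp1 window is chr6:55336049-55336298 (plus strand). The Otx2 window is chr14:48667645-48667894 (minus strand) and the Prlr window chr15:10223656-10223905 (plus strand). Both of the latter lie before a start inside the gene as GENCODE places it.
Aqp1: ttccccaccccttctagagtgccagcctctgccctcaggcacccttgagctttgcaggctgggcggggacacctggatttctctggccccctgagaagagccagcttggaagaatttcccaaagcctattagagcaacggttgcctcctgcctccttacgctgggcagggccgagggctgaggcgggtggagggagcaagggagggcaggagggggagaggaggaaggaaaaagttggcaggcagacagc
Otx2: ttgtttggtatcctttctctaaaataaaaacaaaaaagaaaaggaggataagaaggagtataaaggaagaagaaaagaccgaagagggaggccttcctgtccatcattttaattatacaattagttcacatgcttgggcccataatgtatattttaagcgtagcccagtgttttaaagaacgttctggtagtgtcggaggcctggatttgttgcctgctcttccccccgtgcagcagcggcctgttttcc
Prlr: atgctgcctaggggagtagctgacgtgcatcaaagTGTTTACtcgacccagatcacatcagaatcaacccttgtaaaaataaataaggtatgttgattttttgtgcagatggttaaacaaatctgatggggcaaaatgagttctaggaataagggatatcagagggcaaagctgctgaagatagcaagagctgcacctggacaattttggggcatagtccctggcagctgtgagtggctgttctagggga
The match in the Prlr window begins at position -215 from the annotated start. A match is a description of the letters and not of a bound site.

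The 16 hippocampus libraries had totals of 26026024 to 36670767 counts. Those of striatum had 27418127 to 33635025, and levels are given as CPM, the standard scaling of each count to its library total. At these depths a gene at 0.1 CPM rests on about 3 counts, so the lowest levels below are imprecise. The markers of each region matched the labels. The 12 markers of hippocampal excitatory neurons summed to 1313 to 1873 CPM in hippocampus and 315 to 513 CPM in striatum, and the 12 markers of medium spiny neurons to 87.1 to 136 CPM and 4232 to 7025 CPM. Striatum HDACi-CFC replicate 2 (4232 CPM) and Veh-CFC replicate 3 (4623 CPM) held the least of the spiny neuron markers. In whole tissue, a change in the number of cells of a type and a change in RNA per cell cannot be told apart.

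Ttr had the widest range of the 10 genes. Replicates 1 to 4 of hippocampus Veh-Context held 98.1, 13.4, 3.87 and 3.44 CPM, and those of Veh-CFC held 7.18, 9.10, 38.3 and 15.4 CPM. Replicates 1 to 4 of HDACi-Context held 59.8, 49.3, 24.9 and 355 CPM. Those of HDACi-CFC held 10.9, 5433, 5.05 and 5237 CPM. HDACi-CFC replicates 2 and 4 thus stood above all others, while replicates 1 and 3 of the same group lay among the vehicle libraries. The lower of the 2 high values was 364 times the median of the 14 other hippocampus libraries (14.4 CPM) and 14.7 times the highest of them. In striatum Ttr lay between 0.0362 CPM, a single read, and 12.6 CPM, with a median of 1.01 CPM.

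Enpp2 held 3472 CPM in hippocampus HDACi-CFC replicate 2 and 3514 CPM in replicate 4. The 14 other hippocampus libraries ran from 135 to 436 CPM with a median of 187 CPM, so the lower high value was 18.5 times the median. The striatum libraries held 201 to 318 CPM, so that Enpp2 was abundant in every library of the series. Its baseline is therefore much closer to its high values than that of Ttr.

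Folr1 and Aqp1, which serve transport across the epithelium, had almost no baseline. Folr1 is the folate receptor that carries folate into the fluid. It held 48.9 and 50.7 CPM in HDACi-CFC replicates 2 and 4, against 0.273 to 3.52 CPM in the 14 others. Aqp1 is the water channel of the apical membrane. It held 57.5 and 50.7 CPM in the same libraries, against 0.127 to 2.96 CPM. In striatum Folr1 ran from 0.160 to 1.05 CPM and Aqp1 from 0.0639 to 0.481 CPM. Clic6, of the chloride intracellular channel family, held 117 and 131 CPM in the 2 libraries and 0.511 to 8.61 CPM in the 14 others. In striatum all 16 libraries held 16.1 to 27.3 CPM of Clic6, above every hippocampus library but those 2.

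Of the hormone-related genes, Kl and Prlr had a steady hippocampal baseline. Kl held 252 and 253 CPM in HDACi-CFC replicates 2 and 4 and 21.3 to 40.8 CPM in the 14 others, where the highest was 1.92 times the lowest. In striatum Kl held 1.70 to 4.69 CPM. Prlr, the prolactin receptor, held 136 and 137 CPM in the 2 libraries and 4.45 to 13.2 CPM in the 14 others. Most striatum libraries held little Prlr, with a median of 0.997 CPM, but HDACi-CFC replicate 2 held 12.7 CPM and HDACi-Context replicate 1 held 6.77 CPM.

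The remaining 3 genes were low outside the 2 libraries. Sostdc1, a secreted antagonist of BMP and Wnt signalling, held 27.8 and 26.4 CPM in them and 0.776 to 3.56 CPM in the 14 others. Otx2 held 20.1 and 23.4 CPM against 0.0984 to 2.58 CPM, and Calml4, a calmodulin-like protein, 16.6 and 19.9 CPM against 0.240 to 2.65 CPM. In striatum Sostdc1 was at 0.0696 to 1.13 CPM, Otx2 at 0.119 to 2.50 CPM and Calml4 at 0.209 to 1.80 CPM. All 3 were highest in striatum HDACi-CFC replicate 2.

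**Figure D1:**
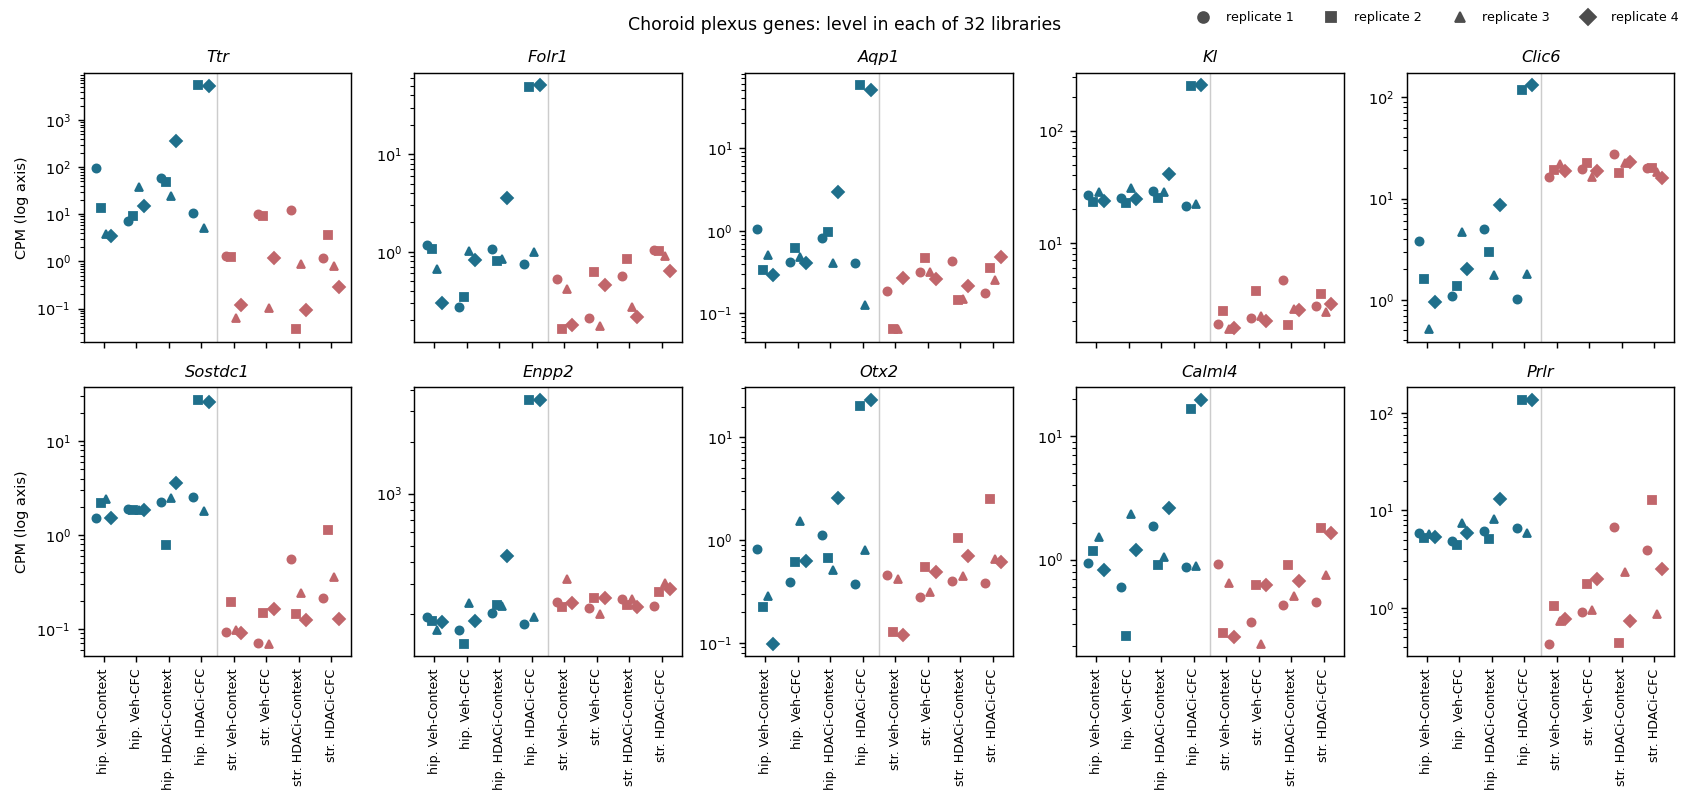
Level of each of the 10 genes in all 32 libraries (CPM, log axis), by region and group, with 1 point per library. Hippocampus HDACi-CFC replicates 2 and 4 lie above every other hippocampus library for each gene, while Clic6 and Enpp2 keep high levels in every striatum library.

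Per kilobase of exon, Ttr was the most abundant of the 10 in the high libraries, at 4581 CPM per kb in HDACi-CFC replicate 2 and 4415 CPM per kb in replicate 4. Enpp2 followed with 601 and 608 CPM per kb, then Clic6 with 29.9 and 33.3 CPM per kb and Kl with 27.1 and 27.1 CPM per kb. Otx2 and Calml4 were the lowest, at 4.57 to 5.54 CPM per kb. In the 14 other hippocampus libraries the order differed. The median level there was 32.4 CPM per kb for Enpp2, 12.1 for Ttr and 2.71 for Kl, and Otx2 was at 0.147. In striatum Enpp2 (41.4 CPM per kb) and Clic6 (4.89 CPM per kb) had the highest medians, and Prlr the lowest (0.0650 CPM per kb).

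Hippocampus HDACi-CFC replicates 2 and 4 held nearly the same amount of each gene. Their ratio was 1.04 for Ttr (95% exact interval from 1.03 to 1.04), 0.998 for Kl (0.967 to 1.03) and 0.996 for Prlr (0.954 to 1.04). It ranged over the 10 genes from 0.837 for Calml4 (0.743 to 0.942) to 1.13 for Aqp1 (1.06 to 1.21). These intervals cover counting error only. The 2 libraries were not copies of each other: over all genes their counts differed with a chi-square of 5.77 per degree of freedom, the lowest of 48 replicate pairs. The next was 6.11, and the other pairs of their group were at 27.3 or more. The lower of the 2 stood over the highest of the 14 others by 6.18 times for Kl to 17.1 times for Aqp1. All 10 genes were above all 14 others in both libraries, and by over 2-fold. The same held for 5.84% and 1.28% of the 15904 genes with at least 1 CPM in at least 2 hippocampus libraries. The genes were chosen for this, so the counts only describe the choice.

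Hippocampus HDACi-Context replicate 4 had the highest level of the 14 other libraries for each of the 10 genes. It held 355 CPM of Ttr, 26.5 times the median of the 13 remaining libraries, and 436 CPM of Enpp2, 2.39 times that median. It held 2.96 CPM of Aqp1 (6.99 times), 8.61 CPM of Clic6 (4.86 times) and 3.52 CPM of Folr1 (4.30 times). For Kl, at 40.8 CPM, the ratio was 1.62. This excess over the median of the 13 is set beside that in the 2 high libraries as a description only, since those libraries chose the genes. Over the 10 genes, the excess in HDACi-Context replicate 4 was between 4.45% and 10.9% of that in HDACi-CFC replicate 2. It was between 5.05% and 9.04% of that in HDACi-CFC replicate 4. For Ttr these shares were 6.31% and 6.55%, for Kl 6.87% and 6.86%, and for Prlr 5.64% and 5.61%. What sets these shares was not tested.

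**Figure D2:**
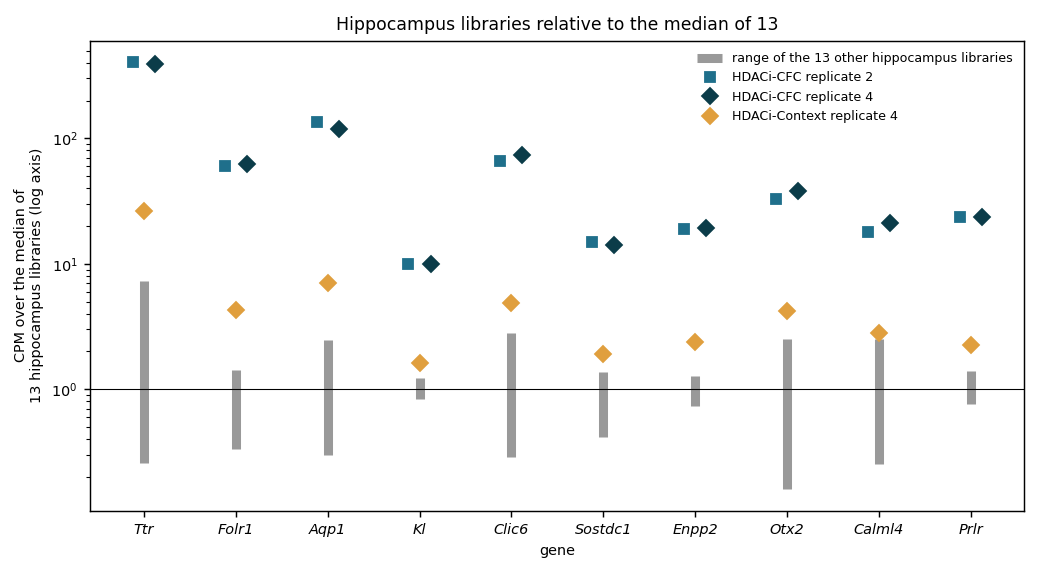
Level of each gene in hippocampus HDACi-CFC replicates 2 and 4 and HDACi-Context replicate 4, divided by the median of the remaining hippocampus libraries (log axis). Bars give the range of those remaining libraries. Ttr has the largest ratios and Kl the smallest, and the 2 HDACi-CFC libraries lie close together for every gene.

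The summed level of the 10 genes was 9582 CPM in HDACi-CFC replicate 2 and 9443 CPM in replicate 4. It was 869 CPM in HDACi-Context replicate 4 and 177 to 332 CPM in the other 13 hippocampus libraries, and 222 to 344 CPM in striatum. Of 38 other genes listed as markers of choroid plexus epithelium, 37 reached 1 CPM in at least 2 hippocampus libraries. All 37 were above the 14 other libraries in both HDACi-CFC replicates 2 and 4, and 34 of them by over 2-fold, against 5.84% and 1.28% of all genes. The list was assembled with earlier results of these data known. Its sum was 1706 and 1700 CPM in the 2 libraries against 130 to 271 CPM in the 14 others, with the 271 CPM in HDACi-Context replicate 4. The sum in striatum was 364 to 502 CPM, of which Vat1l alone held 166 to 249 CPM. The tight junction gene Cldn3 was the exception, at 0.169 and 0.0305 CPM in the 2 libraries.

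Genes of ion transport, secretion and the basement membrane were among these 37. The following were picked for their ratios after the values were seen. Tmem72, a membrane protein, held 124 and 112 CPM in HDACi-CFC replicates 2 and 4, and its median in the 14 others was 0.330 CPM. The potassium channel genes Kcnj13 (72.3 and 66.6 CPM) and Kcne2 (37.7 and 36.6 CPM) had medians of 0.598 and 0.179 CPM. Slc4a5, a sodium bicarbonate cotransporter, held 57.3 and 53.6 CPM against 0.345 CPM. Mfrp, a frizzled-related membrane protein, held 68.0 and 66.9 CPM against 0.226 CPM.

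Other cell types next to a ventricle were examined in the same 2 libraries. Of 11 ependymal genes at 1 CPM, 6 were above the 14 others in both libraries and 2 by over 2-fold, against 5.84% and 1.28% of all genes. Foxj1, the factor of motile cilia, held 11.2 and 8.93 CPM against 2.33 to 7.09 CPM. The 12 ependymal genes summed to 65.7 and 51.5 CPM, against 21.8 to 41.5 CPM. In HDACi-Context replicate 4 that sum was 32.6 CPM, inside the range of the others. None of 10 meningeal fibroblast genes, 4 border macrophage genes or 5 blood genes was above all 14 others in both libraries. Their sums were 114 and 181 CPM for fibroblasts, where the 14 others held 34.3 to 145 CPM. They were 10.2 and 19.5 CPM for macrophages (6.30 to 20.2 CPM) and 155 and 214 CPM for blood (64.3 to 204 CPM).

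Neuronal and glial markers in the 2 libraries mostly lay within the range of the others. The hippocampal excitatory list summed to 1559 and 1521 CPM, the thalamic and habenular list to 271 and 270 CPM (254 to 294 CPM in the others), and the astrocyte list to 2193 and 2418 CPM (1977 to 2588 CPM). The medium spiny list was slightly above, at 122 and 136 CPM against 87.1 to 109 CPM, through Ppp1r1b (DARPP-32, a phosphatase inhibitor) at 60.6 and 66.3 CPM against 22.9 to 37.0 CPM. How far each of these cell types bears on the levels of the 10 genes was not tested.

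**Figure D3:**
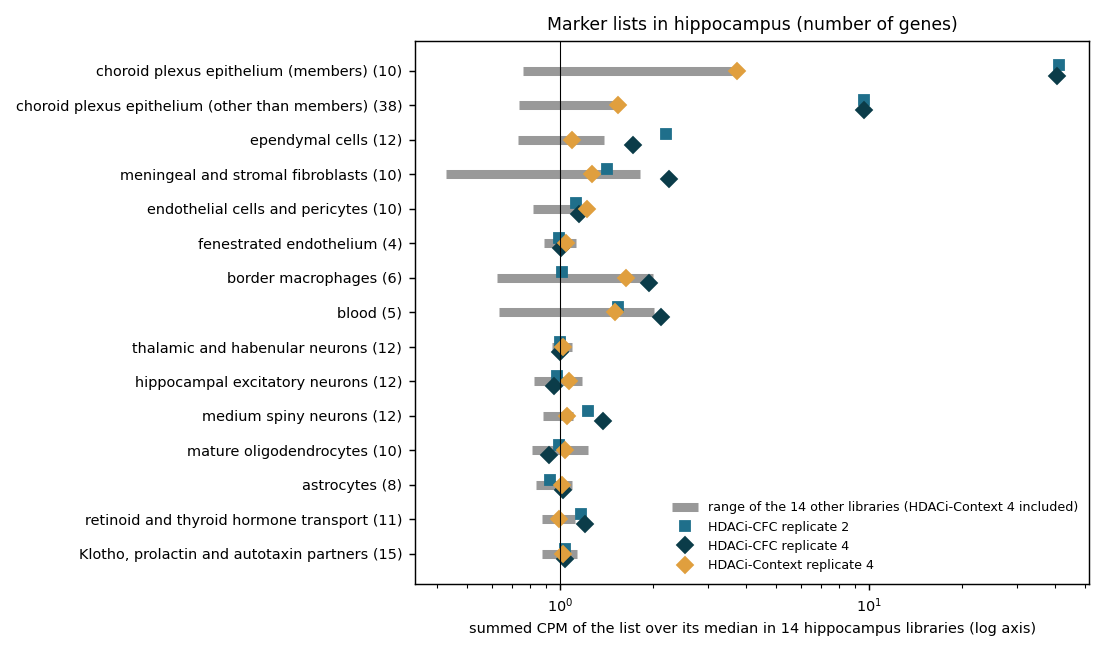
Summed CPM of each marker list in hippocampus, divided by its median in the libraries other than HDACi-CFC replicates 2 and 4 (log axis). Points are HDACi-CFC replicates 2 and 4 and HDACi-Context replicate 4. Bars give the range of the libraries other than HDACi-CFC replicates 2 and 4. Both choroid plexus lists stand apart in hippocampus HDACi-CFC replicates 2 and 4, and the neuronal, oligodendrocyte and astrocyte lists in these libraries lie near the others.

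Genes that act with the 10 were followed in the same 2 libraries. Of 11 genes of retinoid and thyroid hormone transport, 4 were above the 14 others in both libraries, and none by over 2-fold, where 5.84% and 1.28% of all genes were. Stra6, the membrane receptor for the retinol-binding protein, held 23.9 and 21.3 CPM against 8.53 to 19.6 CPM. Slco1c1, a thyroid hormone transporter, held 106 and 115 CPM against 41.1 to 65.7 CPM. Of 15 partners of Klotho, prolactin receptor and autotaxin, 10 reached 1 CPM, and none was above all 14 others in both libraries. Below all 14 in both was 1 of the 10 partners, the lipid receptor Lpar2 at 0.506 and 0.548 CPM, where 1.74% of all genes were. Fgfr1, the receptor that Klotho binds, held 148 and 135 CPM against 100 to 169 CPM. The lipid receptor Lpar1 held 25.5 and 26.8 CPM against 20.6 to 31.2 CPM. The ligand genes Prl and Fgf23, picked after their values were seen, did not exceed 0.121 and 0.342 CPM in any library.

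The 2 regions were compared in vehicle mice, 8 libraries against 8, to place the 10 genes at baseline. With edgeR's quasi-likelihood test and Benjamini-Hochberg adjustment, 4 of the 10 were higher in hippocampus and 1 was lower, where 57.8% of all 19198 genes differed (31.1% higher and 26.7% lower). Kl was 25.5 ± 2.55 CPM (SD, n = 4) in hippocampus and 1.96 ± 0.347 CPM (SD, n = 4) in striatum of Veh-Context mice. Its log2 difference was 3.51 (SE 0.393, adjusted p = 7.07e-09), and all 8 hippocampus values (22.9 to 30.9 CPM) lay above all 8 striatum values (1.70 to 3.72 CPM).

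Sostdc1 was higher in hippocampus by 3.96 (SE 0.628, adjusted p = 3.31e-06) on the log2 scale and Prlr by 2.42 (SE 0.635, adjusted p = 0.0017). For both genes, as for Kl, the 8 vehicle libraries of each region did not overlap. The share of all genes for which this holds was not computed, so it does not set these genes apart. Ttr was higher by 3.58 (SE 1.18, adjusted p = 0.0108), but its ranges overlapped, with 3.44 to 98.1 CPM in hippocampus and 0.0639 to 10.2 CPM in striatum. Without hippocampus Veh-Context replicate 1 the difference in Ttr was 2.53 with an adjusted p of 0.0679. Clic6 went the other way, with a log2 difference of -3.27 (SE 0.617, adjusted p = 4.08e-05). It was 18.9 ± 2.15 CPM (SD, n = 4) in striatum Veh-Context mice and 1.72 ± 1.47 CPM (SD, n = 4) in hippocampus.

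Folr1, Aqp1, Enpp2, Otx2 and Calml4 did not pass in that fit, which takes the spread from all 32 libraries. With only the vehicle groups in the fit, 9 of the 10 passed. Without hippocampus HDACi-CFC replicates 2 and 4, 9 also passed, 7 higher and 2 lower. Enpp2 was then the second gene lower in hippocampus, with a log2 difference of -0.49 (adjusted p = 0.00115). Folr1 (0.98, adjusted p = 0.0405), Aqp1 (1.13, adjusted p = 0.0186) and Calml4 (1.16, adjusted p = 0.0114) were higher, and Otx2 did not pass. Pairing libraries by replicate number gave 6 of 10, with Calml4 added (adjusted p = 0.0345). The share of all genes that passed in these alternative fits is not reported here. In the main fit it was 57.8%, so these counts do not set the 10 genes apart.

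The drug was compared with vehicle after context, 4 hippocampus libraries against 4. None of the 10 genes passed (edgeR, 19.8% of all 18261 genes called), and none had an unadjusted p under 0.05. DESeq2 called none either. The fit takes its spread from all 4 hippocampus groups, HDACi-CFC replicates 2 and 4 included, so a gene that did not pass here may still differ. The standard error of Enpp2 was 0.683 here and 0.113 in the same contrast in striatum, and that of Ttr was 1.53 here and 1.02 without those 2 libraries. All 10 log2 changes were above 0, from 0.34 for Sostdc1 to 2.13 for Ttr, with a median of 0.87 against 0.01 for all genes. HDACi-Context replicate 4 had the highest level in its group for each gene, so the 10 changes are not independent of each other. When 1 hippocampus library was left out, the changes fell to as low as 0.67 for Ttr and 0.03 for Sostdc1, and none turned negative. Ttr was 122 ± 156 CPM (SD, n = 4) after the drug and 29.7 ± 45.8 CPM (SD, n = 4) after vehicle. Enpp2 values were 202, 227, 224 and 436 CPM after the drug, all above the 162 to 192 CPM after vehicle, with a log2 change of 0.69 (SE 0.683, adjusted p = 0.556). Enpp2 was the 1 gene of the 10 that passed when HDACi-CFC replicates 2 and 4 were left out (0.68, SE 0.207, adjusted p = 0.0322) and did not when HDACi-Context replicate 4 was left out with them (0.36, adjusted p = 0.0885).

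Of the 34 other choroid plexus genes tested in that contrast 0 were called, against 19.8% of all genes. Their log2 changes were above 0 in 34 of 34, with a median of 0.53. Without HDACi-CFC replicates 2 and 4 the count was 3 of 34, Rdh5, Car12 and Abca4, with a median of 0.52. The share of all genes called in that fit is not reported here. HDACi-Context replicate 4, in the drug group, held 271 CPM of this list. The highest of the hippocampus libraries other than it and HDACi-CFC replicates 2 and 4 held 238 CPM. The 34 changes share these libraries and are not independent of each other. Among the partners 3 of 11 rose and 0 fell, where 6.55% of all genes rose and 13.2% fell. Lpar6, a lysophosphatidic acid receptor, rose by 1.03 (SE 0.123, adjusted p = 1.61e-05) on the log2 scale, from 3.55 to 4.33 CPM to 7.05 to 8.23 CPM. The others were Socs2, a brake on cytokine receptor signalling, and Lpar4, a second receptor for the lipid. These 3 were picked after their values were seen.

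In striatum the drug was compared with vehicle after conditioning, and Folr1 and Calml4 rose. These were 2 of the 9 genes tested, where 24.2% of all 18256 genes were called and 9.57% rose. Sostdc1 was too low to be tested. Folr1 held 0.208, 0.620, 0.174 and 0.458 CPM after vehicle and 1.05, 1.02, 0.900 and 0.641 CPM after the drug. The 2 groups did not overlap, although the lowest value rests on 5 counts. The share of all genes without such overlap was not computed. The log2 change was 1.38 (SE 0.448, adjusted p = 0.0333). Calml4 held 0.313, 0.622, 0.209 and 0.622 CPM after vehicle and 0.456, 1.80, 0.756 and 1.63 CPM after the drug. The log2 change was 1.46 (SE 0.479, adjusted p = 0.0347), and the groups overlapped.

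The other 7 did not pass in striatum after conditioning. Prlr held 0.909 to 1.97 CPM after vehicle and 0.864 to 12.7 CPM after the drug, with a log2 change of 1.91 (SE 0.744, adjusted p = 0.0736). Otx2 had a change of 1.40 (adjusted p = 0.0724) and Enpp2 of 0.31 (adjusted p = 0.0544). Ttr went the other way, at -1.75 (SE 1.26, adjusted p = 0.345), with 5.22 ± 5.31 CPM (SD, n = 4) after vehicle and 1.47 ± 1.50 CPM (SD, n = 4) after the drug. Kl, Clic6 and Aqp1 were between -0.01 and 0.28. The median over the 9 was 0.31, against 0.03 for all genes.

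Other lists moved in the same contrast, beside Folr1 and Calml4. Of 27 other choroid plexus genes 6 rose and 0 fell, and the 5 with the smallest adjusted p were Rdh5, Car12, Krt18, Stra6 and Slc13a4. The rest of the 38 were too low in striatum to be tested. Among those were Kcnj13, Kcne2 and Cldn2, which held at most 0.315, 0.182 and 0.670 CPM in striatum. Rdh5, a retinol dehydrogenase, rose by 0.97 (SE 0.204, adjusted p = 0.00232), and Car12, a carbonic anhydrase, by 0.59 (SE 0.144, adjusted p = 0.00681). Of 11 ependymal genes 9 rose, with a median change of 1.05. Foxj1 held 5.52, 7.44, 3.69 and 6.04 CPM after vehicle and 9.04, 15.4, 9.57 and 10.3 CPM after the drug. The ependymal sum was 22.9 to 44.9 CPM after vehicle and 52.8 to 87.3 CPM after the drug. Of the lists for other cells, 4 of 10 endothelial and pericyte genes, 2 of 4 border macrophage genes, 2 of 8 astrocyte genes, 2 of 8 hippocampal excitatory genes, 3 of 10 oligodendrocyte genes and 3 of 10 thalamic and habenular genes rose. None of 10 fibroblast genes, 5 blood genes or 12 medium spiny genes rose. Of the 11 partners 3 rose. All these counts stand against 9.57% of all genes. The share of the rise in Folr1 and Calml4 that goes with these markers was not tested.

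Striatum HDACi-CFC replicate 2 was unusual for several of these markers. It held the most Prlr, Otx2, Sostdc1 and Calml4 of the 16 libraries and the most ependymal RNA (87.3 CPM, the next 64.9 CPM). It also held the most of the thalamic and habenular list (255 CPM, the next 153 CPM) and the least of the medium spiny list. Its Ttr was only 3.66 CPM. Without it none of the 9 genes was called, with a log2 change of 1.32 (adjusted p = 0.0648) for Folr1 and 1.18 (adjusted p = 0.107) for Calml4. Over the 16 fits that left out 1 striatum library, the change ran from 1.16 to 1.72 for Folr1 and from 1.18 to 1.72 for Calml4. These fits called 3646 to 4707 of all genes, and the main fit called 4416. Folr1 and Calml4 were also both lost without Veh-CFC replicate 1 or without Veh-CFC replicate 3. Folr1 alone was lost without HDACi-CFC replicate 1 (adjusted p = 0.0764) or 3 (0.0593), and Calml4 alone without HDACi-CFC replicate 4 (0.104). Without HDACi-CFC replicate 2 and Veh-CFC replicate 3 together, 0 of the 9 genes and 0 of the 11 ependymal genes were called, and 2 of 27 other choroid plexus genes. The share of all genes called in that fit is not reported here, so a loss of calls in general cannot be told apart from a loss in these lists.

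After context, Clic6 was the 1 of 9 genes called in striatum, where 24.8% of all genes were called and 10.3% rose. It held 16.4, 18.9, 21.7 and 18.8 CPM after vehicle and 27.3, 17.9, 22.5 and 23.1 CPM after the drug. The ranges overlapped, and the log2 change was 0.37 (SE 0.128, adjusted p = 0.0425). With libraries paired by replicate number it did not pass (0.37, adjusted p = 0.0556), and it was also lost with scaling to library size alone (0.26, adjusted p = 0.149). Of the 16 fits that left out 1 striatum library, Clic6 passed in the 5 without Veh-Context replicate 3, Veh-CFC replicate 3, HDACi-Context replicate 2 or HDACi-CFC replicate 1 or 4 (adjusted p from 0.0114 to 0.163 over the 16). Kl (0.68, adjusted p = 0.0596), Prlr (1.89, adjusted p = 0.0952) and Otx2 (1.30, adjusted p = 0.119) did not pass. Ttr held 12.6, 0.0362, 0.865 and 0.0923 CPM after the drug, and its change of 2.44 (SE 1.37, adjusted p = 0.215) became -0.83 without replicate 1.

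Of the 27 other choroid plexus genes 5 rose after context in striatum and 0 fell: Car12, Rdh5, Stra6, Abca4 and Vat1l. Car12 held 77.5 to 91.5 CPM after vehicle and 118 to 147 CPM after the drug, with a log2 change of 0.81 (SE 0.144, adjusted p = 0.000556). Stra6 rose by 1.09 (SE 0.298, adjusted p = 0.0128). The ependymal list had 1 of 11 called. Of the lists for other cells, 6 of 10 endothelial and pericyte genes, 2 of 4 border macrophage genes, 4 of 8 astrocyte genes, 3 of 10 fibroblast genes, 3 of 10 thalamic and habenular genes, 3 of 12 medium spiny genes and 1 of 10 oligodendrocyte genes rose, against 10.3% of all genes. No blood or hippocampal excitatory gene of the lists rose. The part of these cells in the change of Clic6 was not tested. Among the partners 1 of 11 rose, Lpar6, by 1.03 (SE 0.125, adjusted p = 1.64e-05), with 3.57 to 4.72 CPM after vehicle and 6.69 to 7.93 CPM after the drug. The contrasts after context and after conditioning use different libraries.

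**Figure D4:**
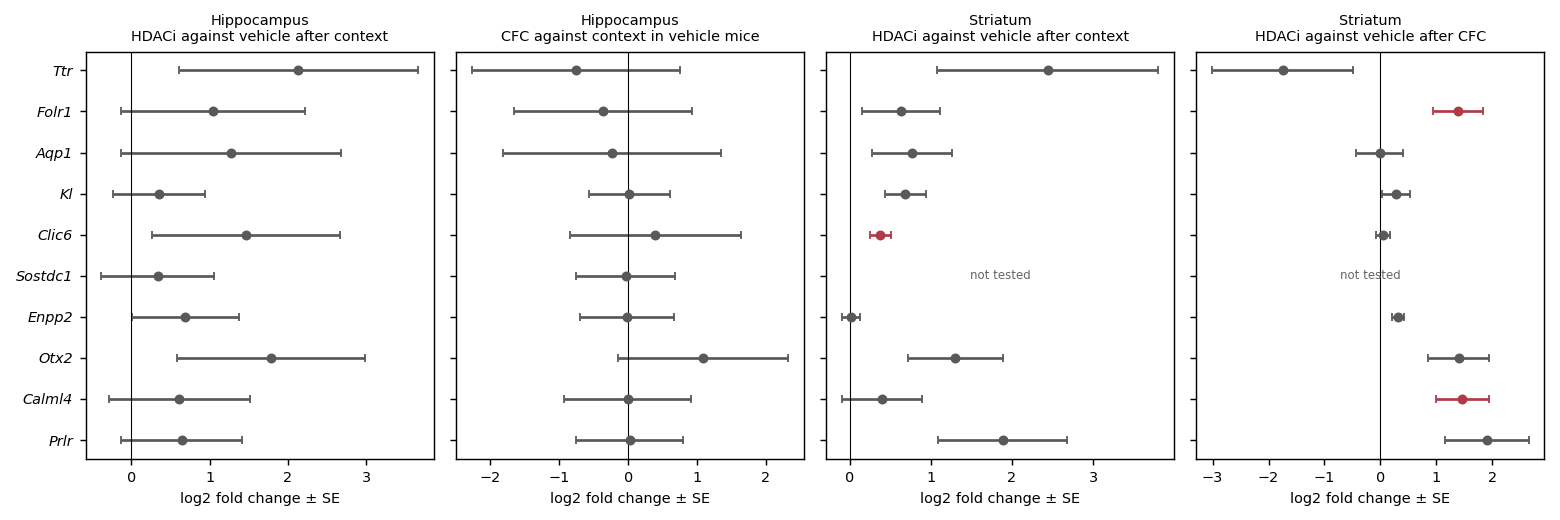
Log2 change of each gene with its standard error, with red points for adjusted p under 0.05 (edgeR). The panels are the drug after context in hippocampus, CFC against context in vehicle hippocampus, and the drug after context and after CFC in striatum. The red points are Folr1 and Calml4 in striatum after CFC and Clic6 in striatum after context.

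Conditioning was compared with context in vehicle mice and, in striatum, under the drug. None of the 10 genes passed in any of these, and 0.0% of all genes did. In vehicle mice 0 of 10 genes in hippocampus and 2 of 9 in striatum had an unadjusted p under 0.05. The 2 in striatum were Ttr (log2 change 2.93, SE 1.36, unadjusted p = 0.0464) and Aqp1 (1.17, SE 0.470, unadjusted p = 0.0240). Ttr was 0.0639 to 1.29 CPM after context and 10.2, 9.34, 0.104 and 1.18 CPM after conditioning. Under the drug in striatum, Folr1 (0.93, unadjusted p = 0.0471) and Clic6 (-0.32, unadjusted p = 0.0222) were under 0.05 before adjustment. DESeq2 called 0 of the 10 genes in each of these contrasts.

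Whether the drug acted differently after conditioning was tested as an interaction in striatum. None of the 9 genes passed, and 0.0% of all genes did. Ttr had the lowest unadjusted p, 0.0387, with an interaction of -4.19 (SE 1.86, edgeR adjusted p = 0.9996). The drug effect after context was also compared between regions. Again 0 of 10 genes passed, against 0.62% of all genes (0.286% with a larger change in hippocampus and 0.333% with a smaller one), and the differences ran from -1.27 for Prlr to 1.07 for Clic6.

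The spread of the 10 genes was followed across libraries through their relation to Ttr, within each region. In hippocampus HDACi-CFC replicates 2 and 4 were left out, since they form a cluster of their own. Over the other 14 libraries Pearson's r of log2(CPM + 0.5) with Ttr passed for 7 of 9 genes, with p from 100000 permutations adjusted over 18 relations. The share of all genes that pass the same test was not computed. The counts of relations in either region therefore do not set these genes apart. The permutations kept neither the group nor the replicate number of a library, so a difference between groups that both genes share can add to these relations. Clic6 had r = 0.92 (adjusted permutation p = 0.00018) and Spearman's rho = 0.89 (adjusted permutation p = 0.00216). Aqp1 had r = 0.86 and rho = 0.71 (adjusted permutation p = 0.00135 and 0.0215), and Otx2 had r = 0.81 and rho = 0.76 (adjusted permutation p = 0.00228 and 0.0146). Folr1 had r = 0.81 and Enpp2 r = 0.79, and by rho 5 of the 9 passed. Kl (r = 0.72) and Prlr (r = 0.67) passed by r only.

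Calml4 (r = 0.56, adjusted permutation p = 0.0746) and Sostdc1 (r = 0.16, adjusted permutation p = 0.688) did not pass. All values share the library total as denominator. Without HDACi-Context replicate 4 and Veh-Context replicate 1, the 2 libraries farthest from the median of Ttr, Clic6 alone passed (r = 0.87, adjusted permutation p = 0.00378). Aqp1, Enpp2 and Otx2 were then at r = 0.67 to 0.69 with an adjusted permutation p of 0.0557 each. Folr1 was at r = 0.58, Kl at 0.49 and Prlr at 0.38 without those 2, and none of the 3 passed over the 12 libraries left. In the 16 striatum libraries 1 of 9 genes passed, Kl, with r = 0.68 (adjusted permutation p = 0.0103) and rho = 0.54 (adjusted permutation p = 0.0866). Without HDACi-Context replicate 1 and Veh-CFC replicate 1 its r was 0.73 (adjusted permutation p = 0.0237). Clic6, the gene closest to Ttr in hippocampus, had r = 0.47 in striatum (adjusted permutation p = 0.1).

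**Figure D5:**
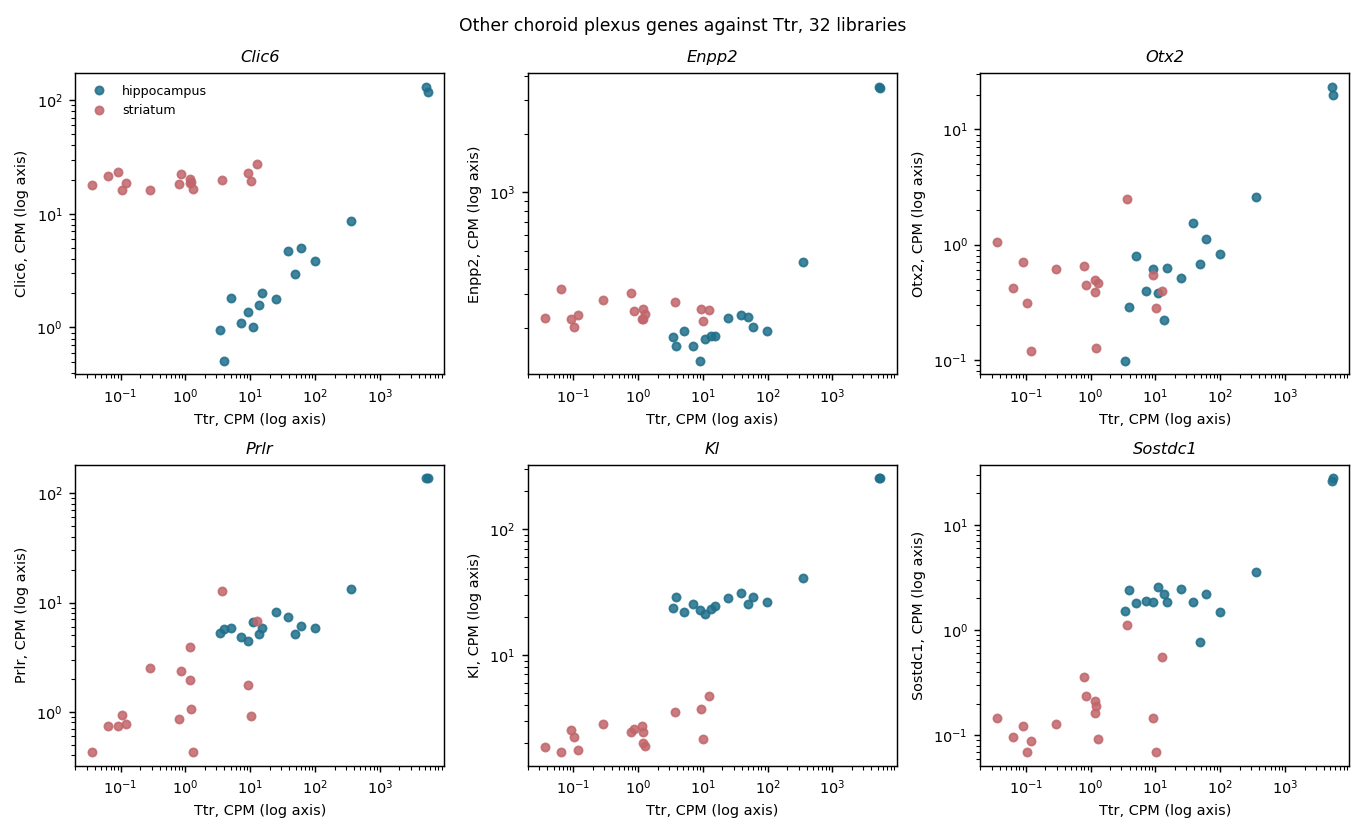
Level of Clic6, Enpp2, Otx2, Prlr, Kl and Sostdc1 against Ttr (CPM, both axes log), with 1 point per library, coloured by region. Clic6 splits by region, and Enpp2 is flat over most of the range of Ttr.

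Over all 32 libraries, the 12 genes outside the list whose levels were most like Ttr had r of log2(CPM + 0.5) from 0.87 to 0.91 among 16627 genes. These are descriptions, since the libraries fall into the 2 regions and the 2 high libraries. In order they were Cldn2, Kcnj13, Igfbp2, Pcolce, Slc13a4, A2m, Msx1, Lepr, Dab2, F5, Kcne2 and Epn3. Cldn2, a pore-forming claudin of the tight junction, held 57.3 and 59.7 CPM in HDACi-CFC replicates 2 and 4, 4.32 CPM at most in the 14 others and 0.670 CPM at most in striatum. F5, coagulation factor V, held 147 and 149 CPM against at most 9.24 CPM and 1.53 CPM. Of the 12, 7 are in the list of other choroid plexus markers. By the same measure Sostdc1 and Prlr were at 0.88 and Kl at 0.88, while Enpp2 (0.67, rank 935) and Clic6 (0.09, rank 7896) were far down the order.

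Some of these levels could include reads of a neighbour, since the strand setting of the counting is not given in the sources used here. Folr1 (chr7:101858331-101870788 in mm10) overlaps Anapc15 on the opposite strand, which held up to 17.3 CPM. Anapc15 was no higher in HDACi-CFC replicates 2 and 4 than in the others, at 15.3 CPM at most. Enpp2 (chr15:54838901-54952892) overlaps the noncoding Gm26684 on the opposite strand, with 6.31 CPM at most in those 2 libraries and 0.558 CPM at most in the 14 others. Otx2 (chr14:48657677-48673819) overlaps Otx2os1 likewise, with 1.89 and 0.182 CPM at most. Genes overlapping Clic6 (chr16:92485736-92541243), Calml4 (chr9:62858080-62875921) and Prlr (chr15:10177238-10349180) held at most 0.174 CPM. No overlapping gene was found for Kl (chr5:150952607-150993817), Aqp1 (chr6:55336432-55348555) or Sostdc1 (chr12:36314139-36318452).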

How the data were processed

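RNA of 32 libraries was measured by stranded sequencing of polyadenylated RNA per the labels' protocols. The deposited table holds raw counts per gene as the authors made it. The build (mm10), STAR 2.6, bcl2fastq 2.20.0 and DESeq2 are named in the submitters' processing notes without roles, and the counting step is not given in the sources used here. Of 54146 identifiers, 54079 matched GENCODE M21, and the other 67 held at most 0.0264% of a library.

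Each region was fitted over its 4 groups, and both regions together for region contrasts, in R 4.3.3 with edgeR 4.0.16 (TMM, filterByExpr, two-sided quasi-likelihood test). Adjusted p follows Benjamini and Hochberg over all genes, with 0.05 as threshold. DESeq2 1.42.0 was an alternative. The scripts were tested on simulated data.

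The genes, lists and tests were chosen with earlier results of these data known. All 10 genes are named. Of the other choroid plexus genes each contrast names at most 5, those with the smallest adjusted p, and of each other list at most 3 genes with the highest mean level, and likeness names 12. Other names, Lpar2 and Cldn3 among them, were picked after their values were seen, and not all of them are marked where they stand. Values of some listed genes are not reported here.

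Same-numbered libraries deviated together (correlation over 0.1 in every pair) in the hippocampus contrasts (0.62 or more for the drug, 0.23 or more for CFC), the striatum drug contrast after context (0.24 or more) and the region contrasts (0.35 or more in vehicle mice). In the other striatum contrasts they did not (as low as -0.27). The pairing comes from this check, since the labels do not say what a number shares.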

Additional observations from a re-analysis of the deposited data

Results flagged for a closer look

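Of 80 groups of 4 libraries (10 genes in 8 groups), 9 had a highest value that stood apart from the other 3 by Dixon's criterion. For independent groups of normally distributed values, chance gives about 1 in 20. Here the 10 genes share the same libraries and some values rest on few counts. The 9 of 80 therefore cannot be read as an excess. Ttr was 98.1 CPM in hippocampus Veh-Context replicate 1 (others 3.44 to 13.4 CPM), 355 CPM in hippocampus HDACi-Context replicate 4 (24.9 to 59.8 CPM) and 12.6 CPM in striatum HDACi-Context replicate 1 (0.0362 to 0.865 CPM). Hippocampus HDACi-Context replicate 4 also stood apart for Folr1, with 3.52 CPM (0.810 to 1.08 CPM), and for Enpp2, with 436 CPM (202 to 227 CPM). Enpp2 was 318 CPM in striatum Veh-Context replicate 3 (221 to 234 CPM). Kl was 3.72 CPM in striatum Veh-CFC replicate 2 (others at most 2.23 CPM). Otx2 was 2.50 CPM in striatum HDACi-CFC replicate 2 (0.386 to 0.648 CPM). Sostdc1 was 0.192 CPM, from 6 counts, in striatum Veh-Context replicate 2 (0.0892 to 0.0963 CPM). In hippocampus HDACi-CFC the 2 high libraries stood together, which this criterion for a single value does not find. No interaction or region difference of the 10 genes passed its test.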

How the results depend on the processing

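The counts of called genes among the 10 rest on few calls near the threshold. In striatum after context (1 called) the count was 0 with library size alone, with no filter, with only replicates 1 and 2, with only replicates 3 and 4, and with only the groups compared. It was 2 with a term for replicates 1 and 2 against 3 and 4, with DESeq2 and without striatum HDACi-CFC replicate 2 and Veh-CFC replicate 3, and 0 to 3 when 1 library was left out. In striatum after CFC (2 called) it was 0 with only replicates 1 and 2, with only 3 and 4 and without those 2 libraries, 1 with only the groups compared, and 0 to 4 when 1 library was left out. In hippocampus after context (0 called) it was 1 with only the groups compared and without HDACi-CFC replicates 2 and 4. For the regions (5 called) it was 3 with only replicates 1 and 2, and 9 with only the vehicle groups, without those 2 libraries, and also without HDACi-Context replicate 4. Leaving out 1 library gave 4 to 5. The relations to Ttr (8 called) fell to 2 without the 2 farthest libraries.

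With the replicate block the count in striatum after context was 0, after CFC 3 and for the regions 6, with Clic6 lost and Calml4 gained where the numbers pair the libraries, and it changed no other call there. In striatum after CFC the numbers do not pair the libraries.

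Some changes near 0 changed sign. In striatum after CFC, Clic6 was -0.045 with library size alone and -0.060 without HDACi-CFC replicate 2 and Veh-CFC replicate 3, and Clic6 ran from -0.028 to 0.11 and Aqp1 from -0.30 to 0.17 when 1 library was left out. In striatum after context, Enpp2 was -0.10 with library size alone, -0.00012 with no filter, -0.14 with only replicates 3 and 4 and -0.012 without those 2 libraries, and -0.074 to 0.15 when 1 was left out. Folr1 was -0.19 with only replicates 3 and 4, and Ttr ran from -0.83 to 2.94, negative without HDACi-Context replicate 1. In hippocampus after context, Folr1 was -0.17 and Sostdc1 -0.21 with only replicates 1 and 2. Without the 2 farthest libraries, r with Ttr was -0.21 for Sostdc1 in hippocampus, and 0.11 for Enpp2 and 0.22 for Calml4 in striatum. Causes other than fewer libraries or genes tested were not tested.

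Counts over all genes moved most with fewer replicates. With only replicates 1 and 2, 1401 genes were called in striatum after CFC, 1520 after context, 1497 in hippocampus after context and 0 for the region difference of the drug effect. With only 3 and 4 these were 2329, 2146, 1625 and 4. That region difference (119) was 73 with no filter, 312 with the replicate block, 223 with the term for replicate sets, 199 with DESeq2, 230 without the 2 striatum libraries and 76 to 206 when 1 library was left out. DESeq2 called 2 genes for CFC under the drug in striatum and 1 for CFC in vehicle hippocampus, where edgeR called 0. For Ttr the region difference did not pass with only replicates 1 and 2 (2.57, adjusted p = 0.152) or 3 and 4 (5.25, adjusted p = 0.0603), nor Prlr with only 1 and 2 (2.32, adjusted p = 0.0615). The alternatives that leave out the 2 striatum libraries, or HDACi-Context replicate 4 with 2 others, were chosen after seeing the data.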
